A study of Sus scrofa with 12 samples.

Results

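Apoptosis regulators that bear on the survival of the corpus luteum were followed in the ovaries of 12 pregnant sows. The genes asked for were 9: the survival proteins BCL2, BCL2L1 and MCL1, the pore-forming effectors BAX and BAK1, the linker BID, the initiator caspase CASP8 and the death receptors FAS and TNFRSF1A. Members were the probe sets whose single gene symbol in the array annotation is one of these names. This gave 11 probe sets of 24123 on the array, for 8 of the 9 genes. No probe set used here carried the single symbol BCL2, so BCL2 was not analysed here.

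The sows came from an F2 cross of the Iberian and Meishan pig breeds and were killed on day 30 of pregnancy. They were grouped by estimated breeding value (EBV), with 6 sows of higher EBV forming the high prolificacy group and 6 of lower EBV the low prolificacy group. The question was whether the ovaries of these groups differ in their transcripts. Each sow has 1 set of porcine Affymetrix GeneChip values from frozen whole ovary. A sample is given as an average over both sides, without saying at which step (tissue, RNA or array values) the averaging was done. No treatment or genotype is given for either group, all sows share the cross and the stage, and the labels name no batch. Values are log2 expression, so a difference of 1 is a doubling.

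Apoptosis is the ordered self-destruction of a cell by caspases. In the intrinsic route, BAX and BAK1 open the outer mitochondrial membrane and are held back by BCL2, BCL2L1 and MCL1. In the extrinsic route, FAS and TNFRSF1A, the receptors for Fas ligand and tumour necrosis factor, recruit and activate CASP8, which cleaves BID and so ties the receptors to the mitochondria. The corpus luteum secretes the progesterone that maintains pregnancy in the pig. Its cells die by apoptosis when it regresses and are kept alive while the pregnancy lasts.

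After the authors' normalization, which itself brings the arrays together, the 12 medians ran from 4.81 to 4.97 and rank correlations from 0.974 to 0.993. The arrays were less even in limma's array weights, which are low where values scatter more around the group means. These weights were 0.38 for high 3 and 0.45 for high 2, the lowest, and 2.02 for high 6, the highest. Luteal markers were all measured, 7 of 7, with a mean level of 13.04 to 13.76 in high and 13.33 to 13.60 in low prolificacy sows. Of 11 macrophage markers 7 were on the array, all measured, and 7 of 8 endothelial markers were measured. Of 9 markers of growing follicles 5 were measured, while INHBB, AMH, FSHR and IHH were on the array but not measured. Those 5 form the granulosa score used below. Among them, INHA ran from 4.15 to 11.43 and the brightest CYP19A3 probe set from 3.86 to 12.74 over the sows. The 6 T and NK cell markers on the array ran from 1.86 to 3.33 and none reached the level of 4 in at least 6 sows that was used to call a probe set measured. Of 5 liver markers 2 were measured, and albumin (ALB), fibrinogen FGB and TTR were not. ALB still ran from 2.04 to 12.61 over the sows. It averaged 3.50 ± 2.58 in high prolificacy and 6.90 ± 4.98 in low prolificacy ovaries, so it was also used as a covariate. The source of this signal was not tested. In whole ovary, fewer cells of a type and less RNA per cell cannot be told apart.

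The regulators divided into a measured and an unmeasured set. MCL1, both BID probe sets, CASP8 and TNFRSF1A stood above 4 in 12 of 12 sows and were tested, which makes 5 of 11 probe sets and 4 of 8 genes. The BCL2L1, BAX and BAK1 probe sets stood above 4 in 0 sows and FAS in 1 sow. Over the whole array, 33.9% of the probe sets with 1 symbol did not pass this filter. Each probe set has its own probes, so levels are compared between sows and never between genes.

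None of the tested regulators passed the test between the groups. With limma and Benjamini-Hochberg adjustment over all 13390 probe sets tested, 0 of the 5 passed an adjusted p of 0.05, where 0% of all probe sets did. At an unadjusted p under 0.05 the count was 0 of 5, beside 5.64% of all probe sets. Of the 5, 3 were higher and 2 lower in high prolificacy sows, beside 47.6% and 52.4% of all probe sets tested. The 2 groups overlapped in 11 of 11 regulator probe sets, and groups that did not overlap made up 0.471% of all probe sets tested. The smallest limma adjusted p among the 5 was 0.931. The design allows differences of some size to remain unseen: over all probe sets tested the median 95% interval reached 0.35 to either side of the estimate. That interval is not adjusted for the number of probe sets tested, so larger differences can also miss the adjusted threshold.

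**Figure D1:**
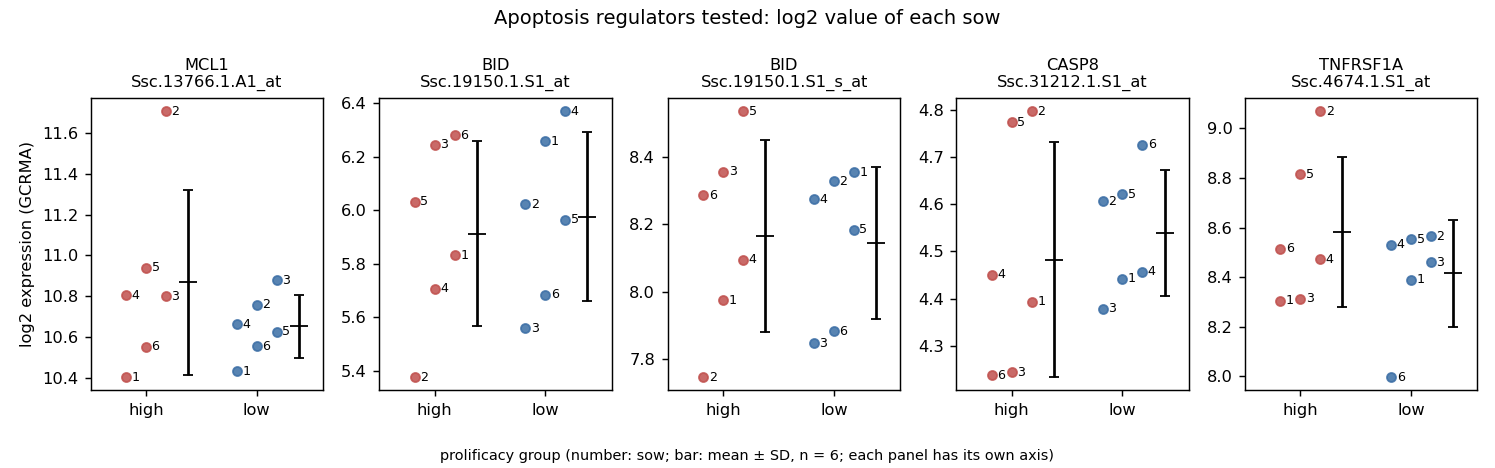
Log2 expression of the 5 tested regulator probe sets in each sow, high prolificacy left and low prolificacy right, with the sow's number beside its point and the mean ± SD of 6 sows as a black bar. Each panel has its own axis. High 2 holds the highest MCL1, CASP8 and TNFRSF1A values and the lowest value of both BID probe sets, and the groups overlap in every panel.

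MCL1, a short-lived survival protein that binds BAK1 and keeps it inactive, was read by 1 probe set. It had a lowest, median and highest value of 10.40, 10.80 and 11.71 in high prolificacy sows, against 10.43, 10.64 and 10.88 in low prolificacy sows. High 2 stood alone at the top, and 2 high prolificacy sows exceeded every low prolificacy sow. MCL1 averaged 10.87 ± 0.45 in high prolificacy and 10.65 ± 0.16 in low prolificacy ovaries (SD, n = 6 each), a difference of 0.22 on the log2 scale (SE 0.19, 95% interval -0.19 to 0.62, limma adjusted p = 0.931). The interval spans 0.877 to 1.54 as a fold of high over low. Without high 2 the high prolificacy mean was 10.70 ± 0.22 and the difference 0.048. High 2 also had the largest difference between the 3' and 5' ends of the actin control transcript, 3.23, a sign of RNA integrity and labelling. That 3' minus 5' difference averaged 2.59 ± 0.45 in high prolificacy and 2.12 ± 0.13 in low prolificacy ovaries, and with it as a covariate the MCL1 difference was -0.057.

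BID, the substrate of CASP8 that carries its signal to mitochondria, was read by 2 probe sets whose values followed each other over the 12 sows (r = 0.845). The brighter one had a lowest, median and highest value of 7.75, 8.19 and 8.53 in high prolificacy sows, against 7.85, 8.23 and 8.35 in low prolificacy sows. The other had 5.38, 5.93 and 6.28 in high prolificacy sows, against 5.56, 5.99 and 6.37 in low prolificacy sows. High 2 was lowest in both, and low 3 and low 6 were the lowest of their group in both. The brighter probe set averaged 8.17 ± 0.28 in high prolificacy and 8.14 ± 0.22 in low prolificacy ovaries (SD, n = 6 each), a difference of 0.021 (SE 0.15, 95% interval -0.30 to 0.34, limma adjusted p = 0.992). The other differed by -0.064 (SE 0.18, 95% interval -0.46 to 0.33, limma adjusted p = 0.989). The sign of either probe set turned when some single sows were left out, so no direction can be given for BID. With the actin 3' minus 5' difference as a covariate the differences were 0.18 for the brighter and 0.20 for the other probe set (limma adjusted p = 0.646 and 0.656).

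CASP8, the caspase that the death receptors activate, was read by 1 probe set close above the filter. Its lowest, median and highest values were 4.24, 4.42 and 4.80 in high prolificacy sows, against 4.38, 4.53 and 4.73 in low prolificacy sows. The high prolificacy sows held both ends of the range, with high 3 and high 6 lowest and high 2 and high 5 highest. CASP8 averaged 4.48 ± 0.25 in high prolificacy and 4.54 ± 0.13 in low prolificacy ovaries (SD, n = 6 each), a difference of -0.056 (SE 0.12, 95% interval -0.32 to 0.21, limma adjusted p = 0.985). It was -0.12 without high 2, -0.11 without high 5, -0.0081 without high 3 and -0.0067 without high 6. With the actin 3' minus 5' difference as a covariate it was -0.23 (limma adjusted p = 0.408).

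TNFRSF1A, the main receptor for tumour necrosis factor, was read by 1 probe set. Its lowest, median and highest values were 8.30, 8.49 and 9.07 in high prolificacy sows, against 8.0, 8.49 and 8.56 in low prolificacy sows. High 2 and high 5 exceeded every low prolificacy sow, low 6 lay below every other sow, and the 2 medians were alike. TNFRSF1A averaged 8.58 ± 0.30 in high prolificacy and 8.42 ± 0.22 in low prolificacy ovaries (SD, n = 6 each), a difference of 0.17 (SE 0.15, 95% interval -0.16 to 0.49, limma adjusted p = 0.931). As a fold of high over low the interval spans 0.895 to 1.41. Without high 2 the difference was 0.068, without low 6 it was 0.082, and with the actin 3' minus 5' difference as a covariate it was -0.048.

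FAS, the receptor for Fas ligand, stayed under the filter in its 1 probe set. Its lowest, median and highest values were 3.32, 3.37 and 4.13 in high prolificacy sows, against 3.03, 3.34 and 3.88 in low prolificacy sows. High 4 and low 5 stood above the others of their groups, and the remaining sows lay between 3.03 and 3.42. FAS averaged 3.49 ± 0.32 in high prolificacy and 3.34 ± 0.30 in low prolificacy ovaries (SD, n = 6 each), a difference of 0.16 (exact permutation p = 0.409, two-sided, not adjusted). It was 0.027 without high 4, 0.093 without low 1 and 0.26 without low 5. The ligands of FAS and TNFRSF1A, named after their values were seen, also lay under the filter. On its own probe set Fas ligand (FASLG) ran from 2.20 to 2.27 and tumour necrosis factor (TNF) from 2.31 to 2.66 over the 12 sows. FASLG and TNF were not measured at these levels, which does not show that their RNA was absent. TNFSF10, another death receptor ligand, passed the filter and averaged 6.71 ± 0.43 in high prolificacy and 6.75 ± 0.88 in low prolificacy ovaries.

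BCL2L1, the survival protein also called BCL-X, and the effectors BAX and BAK1 lay at the floor of the scale in all 5 of their probe sets. Their highest value in any sow was 2.92. BAX ran from 2.12 to 2.17 in high and from 2.12 to 2.15 in low prolificacy sows. Its SD over the 12 sows was 0.0136, within the range of 0.0106 to 0.0212 seen for the 17 artificial tag controls, probe sets for sequences that are no pig transcript. BAK1 had an SD of 0.0203 in one probe set, also within that range, and of 0.0985 in the other, which was 0.0142 without high 4. The first BCL2L1 probe set had an SD of 0.0298, or 0.0161 without high 4, and the second an SD of 0.185, or 0.0234 without low 5. With 1 sow left out, all 5 therefore varied over the remaining sows within the range of the controls or close above it, and their genes could not be compared between the groups.

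A few single sows left that floor. The second BCL2L1 probe set read 2.92 in low 5 and at most 2.34 in any other sow. The BAK1 probe set with the larger SD read 2.35 in high 4 and at most 2.04 elsewhere. Within each gene the other probe set did not follow: BCL2L1 correlated at r = 0.0569 and BAK1 at r = 0.0324 between its 2 probe sets over the 12 sows, which is a description of values near the floor. Group means of these 5 probe sets differed by -0.089 to 0.054, and exact permutation p-values ran from 0.184 to 0.97 (two-sided, not adjusted).

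**Figure D2:**
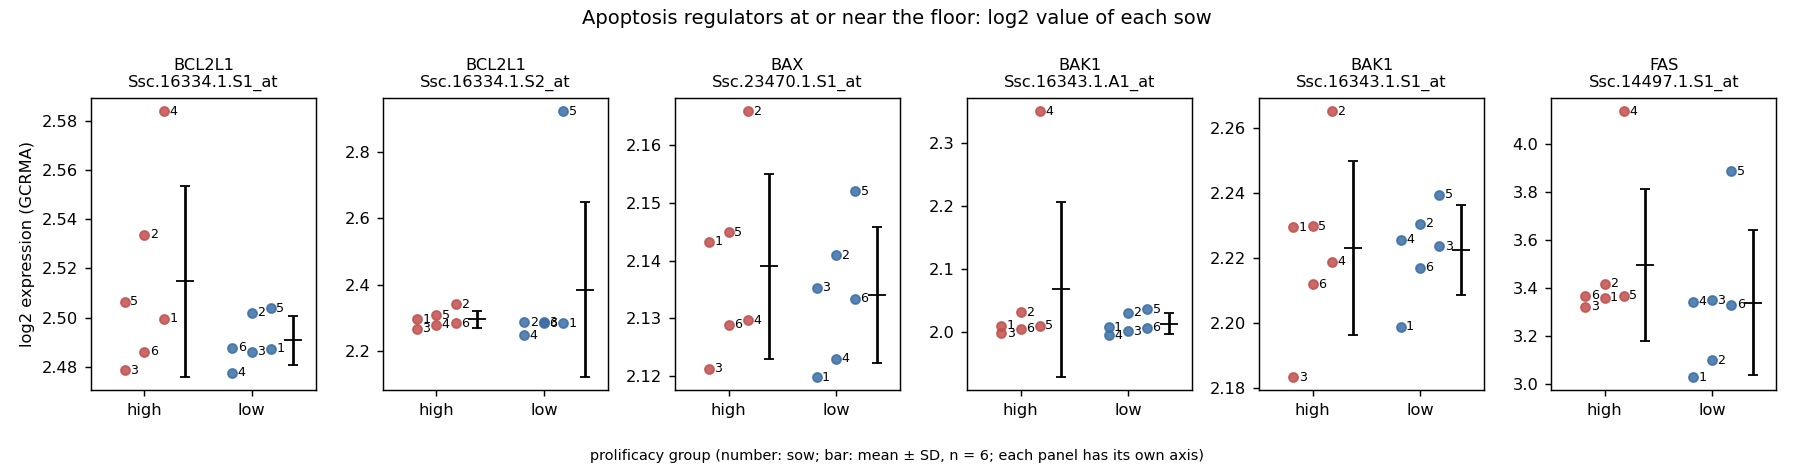
Log2 expression of the 6 regulator probe sets that did not pass the filter, in each sow, high prolificacy left and low prolificacy right, with the sow's number beside its point and the mean ± SD of 6 sows as a black bar. The axes differ widely between panels: BAX spans 2.12 to 2.17, while FAS spans 3.03 to 4.13, with high 4 and low 5 above the rest.

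Among the regulator probe sets high 2 stood at an end of the range most often. It held the highest value in 5 of the 11 regulator probe sets and the lowest in 2, and among the 5 tested ones it was highest in 3 and lowest in 2. Its other highest values were in BAX and in the BAK1 probe set with the smaller SD, both at the floor. Over all 13390 probe sets tested, high 2 was highest in 12.8% and lowest in 16.8%. High 3 stood at an end more often there, highest in 19.2% and lowest in 17.5%. High 4 held the highest value in 3 of the 11, all of them below the filter. The within-group SD was 0.34 for MCL1, 0.26 for TNFRSF1A, 0.26 for the brighter BID probe set and 0.20 for CASP8, beside a median of 0.28 over all probe sets tested.

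Of the pairs of regulators fixed by their known partnership, 10 in all, 2 could be examined, since both genes had to be measured. TNFRSF1A and CASP8, receptor and caspase, correlated over the 12 sows at r = 0.494 after group means were removed (permutation p = 0.103, adjusted p = 0.205; Spearman rho = 0.497, permutation p = 0.105, adjusted p = 0.209). Within groups r was 0.877 in high and -0.495 in low prolificacy sows, and it was 0.223 over the sows other than high 2. Without the 2 sows farthest from the median in TNFRSF1A, high 2 and low 6, it was 0.705, and without the 2 farthest in CASP8, high 2 and high 5, it was -0.0234. CASP8 and its substrate BID correlated at r = -0.188 (permutation p = 0.553, adjusted p = 0.553; rho = -0.189, permutation p = 0.560), and at -0.281 without high 2 and high 5, the sows farthest from the median in CASP8. It was 0.174 without high 2 alone, -0.00398 without high 2 and low 3, the sows farthest in BID, and -0.382 with the 2 BID probe sets averaged. Neither relation passed, and both changed sign with the sows that entered.

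The 4 measured regulators were also set against scores of luteal, granulosa, macrophage and endothelial markers, 16 relations in one family, since a whole ovary mixes these cells. TNFRSF1A ran with the macrophage score at r = 0.757 over the 12 sows after group means were removed (permutation p = 0.0039, adjusted p = 0.0622; rho = 0.748, permutation p = 0.0066, adjusted p = 0.106). It was 0.641 within high and 0.947 within low prolificacy sows, 0.858 without high 2, and 0.535 without the 2 sows farthest from the median score, high 3 and low 6 (permutation p = 0.112). TNFRSF1A ran the same way with the endothelial score, at r = 0.607 (permutation p = 0.0362, adjusted p = 0.139; rho = 0.622, permutation p = 0.0341, adjusted p = 0.182). It was 0.551 within high and 0.971 within low prolificacy sows, 0.854 without high 2, and 0.589 without the 2 sows farthest from the median score, high 1 and high 5. The 2 scores were not tested against each other. Against the granulosa score TNFRSF1A ran the other way, at r = -0.666 (permutation p = 0.0175, adjusted p = 0.139; rho = -0.538, permutation p = 0.0755). This r was -0.814 without high 1 and high 4 and -0.580 without high 2. The macrophage score ran from -0.50 to 0.58 in high and from -0.77 to 0.28 in low prolificacy sows, and its part in the TNFRSF1A difference between groups was not tested.

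MCL1 was lower in sows with a higher granulosa score, at r = -0.570 (permutation p = 0.0436, adjusted p = 0.139; rho = -0.566, permutation p = 0.0584). This r was -0.599 without high 1 and high 4 and -0.475 without high 2. CASP8 was higher in sows with a higher luteal score, at r = 0.62 (permutation p = 0.0280, adjusted p = 0.139; rho = 0.671, permutation p = 0.0208, adjusted p = 0.166). This r was 0.755 without high 3 and high 4 and 0.532 without high 2. BID reached its largest r with the endothelial score, 0.503 (permutation p = 0.0905, adjusted p = 0.241; rho = 0.413, permutation p = 0.185), which was 0.127 without high 1 and high 5 and 0.564 without high 2. None of the 16 relations passed an adjusted p of 0.05. With the granulosa score as a covariate, the group differences were 0.15 for MCL1 and 0.11 for TNFRSF1A.

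**Figure D3:**
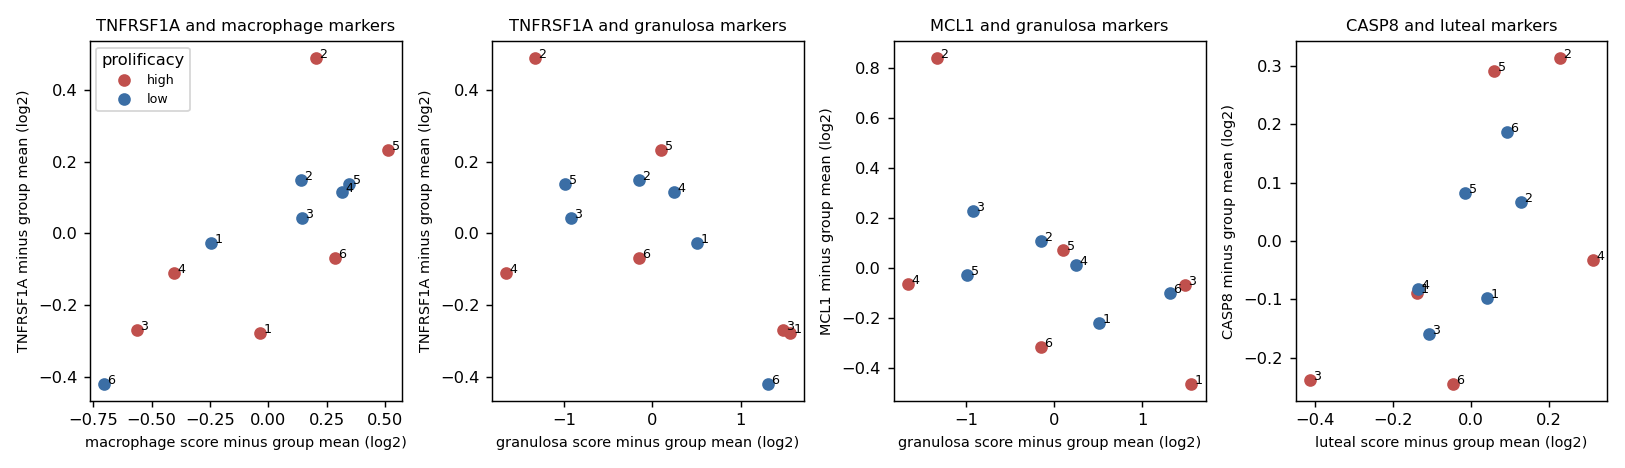
Each point is a sow, coloured by prolificacy group and numbered, and both axes give log2 values minus the group mean. TNFRSF1A is plotted against the macrophage score (r = 0.757) and the granulosa score (r = -0.666), MCL1 against the granulosa score (r = -0.570) and CASP8 against the luteal score (r = 0.62).

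For each measured regulator, the 2 genes with the highest correlation over the 12 sows, group means removed, were listed from the probe sets with 1 symbol that were tested, 6656 in all. MCL1 was most like DUSP6 (r = 0.925) and MRPS9 (r = 0.920), and TNFRSF1A most like DDX21 (r = 0.967) and PHLDA2 (r = 0.936). BID was most like RCC2 (r = 0.872) and HSF1 (r = 0.860). CASP8 was most like TP53BP2 (r = 0.903) and PARP8 (r = 0.887), but with group means left in these were 0.584 and 0.677. The highest of so many correlations over 12 sows is large by selection, so these are descriptions.

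Other genes of the pathway were read from 5 lists of 72 genes, of which 39 were on the array and 31 measured. No gene passed the limma adjusted threshold, where 0% of all probe sets did. At an unadjusted p under 0.05 there were 2 of 31 genes (6.45%), beside 5.64% of all probe sets tested. Of the 31, 11 were higher in high prolificacy sows and 20 lower (35.5% higher), with a median difference of -0.071, against -0.010 over all probe sets tested.

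**Figure D4:**
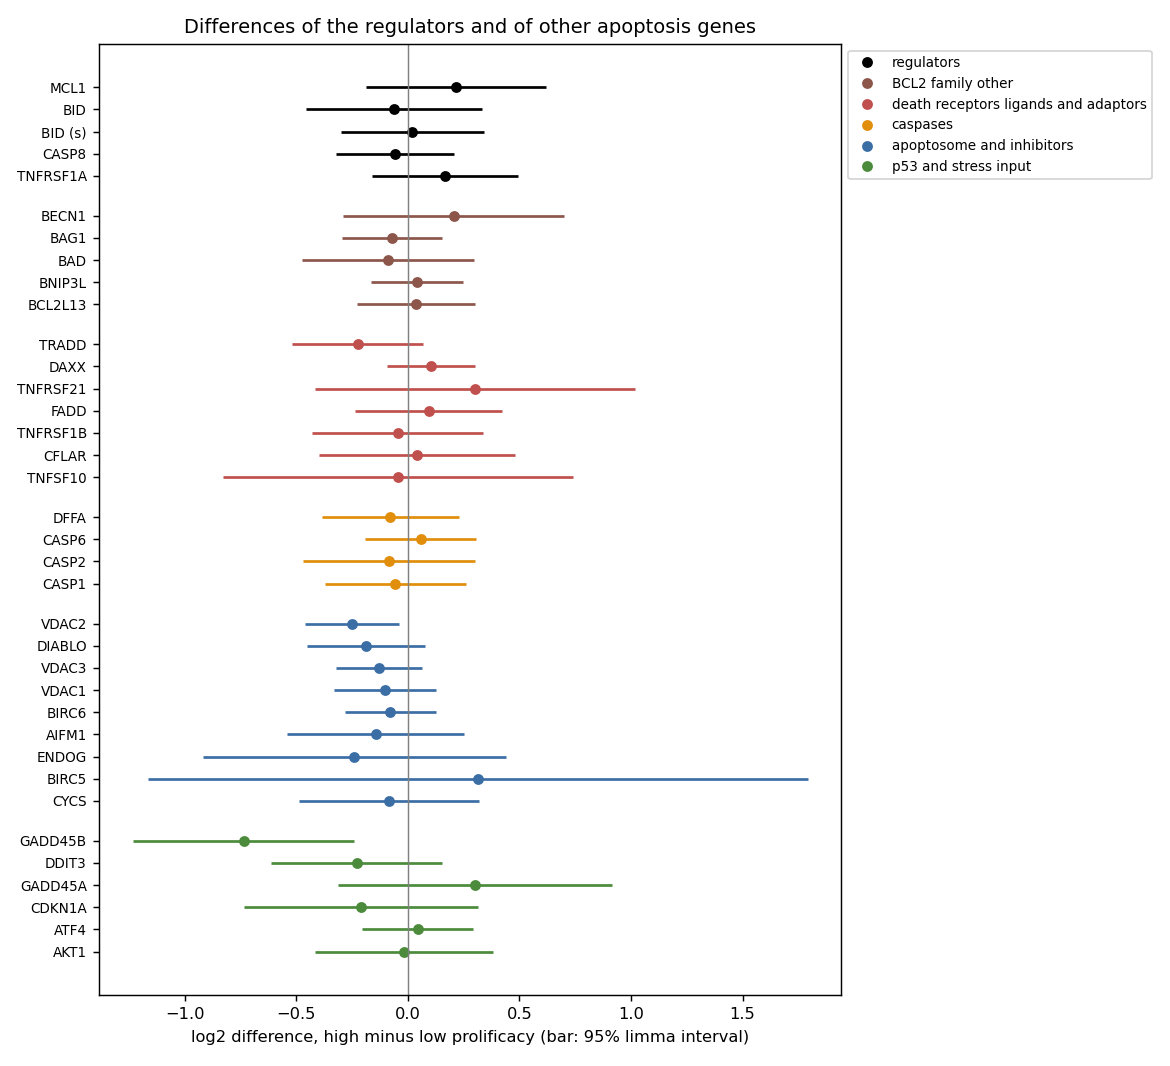
Points are log2 differences, high minus low prolificacy, and bars their 95% limma intervals, for the 5 tested regulator probe sets (black; "s" marks the brighter BID probe set) and the brightest tested probe set of 31 other apoptosis genes, coloured by list. The intervals of VDAC2 and GADD45B alone lie wholly below 0, before any adjustment.

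Other members of the BCL2 family and its partners, 5 measured of 17, gave 3 higher and 2 lower with a median of 0.038. BECN1, the autophagy protein that BCL2 binds, averaged 8.21 ± 0.23 in high prolificacy and 8.0 ± 0.56 in low prolificacy ovaries, a difference of 0.20 (limma adjusted p = 0.948), which was 0.060 without low 4 and 0.067 without low 5. BAG1, a BCL2-binding co-chaperone, differed by -0.071, by -0.010 without low 5, by -0.12 without low 2 and by -0.17 with the actin 3' minus 5' difference as a covariate. BAD, which ties up survival proteins, differed by -0.090, by -0.0073 without low 1, by -0.20 without low 4, and by 0.066 without high 2 and high 3.

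Death receptors, ligands and adaptors, 7 measured of 18, gave 4 higher and 3 lower with a median of 0.041. TRADD, the adaptor that TNFRSF1A recruits, averaged 7.13 ± 0.25 in high prolificacy and 7.36 ± 0.21 in low prolificacy ovaries, a difference of -0.22 (95% interval -0.52 to 0.069, limma adjusted p = 0.903). DAXX, first described as a FAS-binding protein, averaged 7.18 ± 0.12 in high prolificacy and 7.07 ± 0.12 in low prolificacy ovaries. Although 6 of 6 high prolificacy sows lay above the low prolificacy mean, the groups overlapped. DAXX values began at 7.11 in high prolificacy and reached 7.18 in low prolificacy sows. DAXX was named by its small p within this list, so the count of sows is a description. Its difference was 0.10 (95% interval -0.094 to 0.30, limma adjusted p = 0.931). It was 0.053 without high 4, 0.058 without low 6 and 0.048 with the actin 3' minus 5' difference as a covariate. TNFRSF21, a death receptor, differed by 0.30, by 0.086 without high 4, by 0.54 without high 3, and by -0.30 with the actin 3' minus 5' difference as a covariate.

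Caspases and their nuclease, 4 measured of 11, gave 1 higher and 3 lower with a median of -0.067. DFFA, the inhibitor of the apoptotic nuclease, differed by -0.078, the executioner CASP6 by 0.057 and CASP2 by -0.085. Leaving out 1 sow moved DFFA over -0.15 to 0.0045, CASP6 over 0.021 to 0.12 and CASP2 over -0.18 to 0.069. CASP2 differed by 0.069 without high 2 and by 0.26 with the actin 3' minus 5' difference as a covariate.

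The apoptosome and inhibitor list, 9 measured of 14, gave 1 higher and 8 lower with a median of -0.13. Over all probe sets tested 47.6% were higher and 52.4% lower. APAF1, HTRA2, XIAP, BIRC2 and BIRC3 had no probe set with their single symbol, so the count does not cover them. VDAC2, the mitochondrial channel that binds BAK1, averaged 11.34 ± 0.13 in high prolificacy and 11.58 ± 0.15 in low prolificacy ovaries, a difference of -0.25 (95% interval -0.46 to -0.038, unadjusted p = 0.024, limma adjusted p = 0.834). All 6 high prolificacy sows lay below the low prolificacy mean, but the groups overlapped. High prolificacy values reached 11.50 and low prolificacy values began at 11.44. The difference ran from -0.28 to -0.20 as single sows were left out. VDAC2 was named for the smallest p of its list, so these values describe it and are no separate support. DIABLO, which mitochondria release to free caspases from their inhibitors, differed by -0.19, by -0.11 without high 2, and by -0.0091 with the actin 3' minus 5' difference as a covariate. The related channel VDAC3 differed by -0.13, by -0.085 without high 2, and by -0.047 with the same covariate.

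Genes of p53 and stress input, 6 measured of 12, gave 2 higher and 4 lower with a median of -0.11. GADD45B, a stress-induced protein that acts on MAP kinase signalling, averaged 7.13 ± 0.34 in high prolificacy and 7.86 ± 0.50 in low prolificacy ovaries, a difference of -0.74 (95% interval -1.23 to -0.24, unadjusted p = 0.0069, limma adjusted p = 0.752). Its values ran from 6.79 to 7.62 in high and from 7.10 to 8.53 in low prolificacy sows, so the groups overlapped. GADD45B, too, was named for the smallest p of its list, so its values are a description and no separate support. The difference was -0.60 with the actin 3' minus 5' difference as a covariate and -0.92 with albumin (ALB) as a covariate. DDIT3, a transcription factor of endoplasmic reticulum stress, differed by -0.23, and GADD45A by 0.30. With the actin 3' minus 5' difference as a covariate these were -0.58 for DDIT3 and 0.068 for GADD45A. Without 1 sow DDIT3 ran from -0.36 (without high 2) to -0.14 (without high 3), and GADD45A was lowest at 0.13 without low 1 and 0.16 without high 2.

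**Figure D5:**
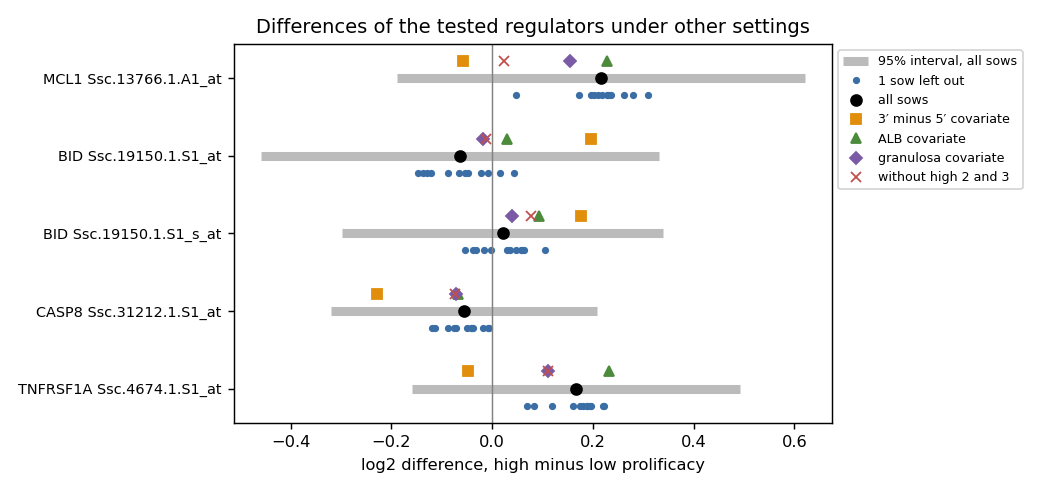
Log2 differences, high minus low prolificacy, of the 5 tested regulator probe sets with all sows (black point, grey bar for the 95% limma interval), with each sow left out in turn (blue points) and under 4 other settings (coloured marks). MCL1 is lowest, among the blue points, without high 2 (0.048), and MCL1 and TNFRSF1A fall below 0 with the actin 3' minus 5' covariate.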

How the data were processed

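The deposited table holds log2 expression values of 24123 probe sets in 12 sows. The authors made them with GCOS and GCRMA, per the submitters' processing notes. GCRMA removes background using the probes' base content, brings the arrays to one distribution and gives 1 value per probe set. No version or setting of either is known here, and the size of the values shows the log2 scale. Gene names came from the array annotation, where 10099 probe sets had 1 symbol, 198 several and 13826 none; 9989 were matched by Entrez ID and 0 symbols changed.

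Probe sets above 4 in at least 6 sows, without the 124 Affymetrix controls, were tested (13390) with limma 3.58.1 in R 4.3.3, high minus low, no covariate, Benjamini-Hochberg at 0.05, two-sided. In a block of 62 porcine controls the names were displaced by 21 places, so that same-named spike controls lay 4.83 apart on average as named and 0.436 after the shift was undone. The actin 3' minus 5' difference uses the moved names. Single values below the filter were compared by an exact permutation test over 924 assignments, whose smallest p is 0.00216. Correlations used 100000 permutations. Marker scores are mean centred log2 values of measured markers, with the brightest probe set of a gene. The fit was tested on simulated data.

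The members, lists and tests were chosen with earlier results of these data known. The genes named are all members, 3 genes of each list by smallest p, and 2 most alike each member. The replicates are separate sows per the labels, which do not say whether any were related. The number of arrays limits the precision. Alternatives were other filters, normalizations, covariates, weights and moderation, an exact test, the animal number as a block, and leaving out sows.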

Additional observations from a re-analysis of the deposited data

Results flagged for a closer look

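Of 22 groups of 6 sows examined, 2 for each regulator probe set, 5 held a value that stood apart from the rest by Dixon's criterion. Chance gives about 1 in 20 groups. In low prolificacy, low 5 read 2.92 in the second BCL2L1 probe set, with the nearest other sow at 2.29, and 3.88 in FAS, with the nearest at 3.35. Low 6 read 8.0 in TNFRSF1A, with the nearest at 8.39. In high prolificacy, high 4 read 2.35 in 1 of the 2 BAK1 probe sets, with the nearest at 2.03, and 4.13 in FAS, with the nearest at 3.42. The 4 values other than that of TNFRSF1A belong to probe sets under the filter.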

How the results depend on the processing

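The count of regulator probe sets past the adjusted threshold was 0 under every alternative run. Over all probe sets tested it was 0, except without low 1, when 1 probe set passed (0 to 1 over the leave-one-out fits). With the animal number as a replicate block, the count was again 0 of 5 and the MCL1 difference 0.22 (limma adjusted p = 0.97); same-numbered sows deviated together at r from -0.455 to 0.168, so the numbers were not taken as pairs, and the block changed no call. With the actin 3' minus 5' covariate, signs turned to -0.057 for MCL1, -0.048 for TNFRSF1A, 0.20 for the dimmer BID probe set, -0.30 for TNFRSF21, 0.0020 for DFFA and 0.26 for CASP2. With ALB as a covariate they turned to 0.029 for that BID probe set and -0.0057 for CASP6, with array weights to 0.056 for that BID probe set and 0.061 for BAD, and without high 2 and high 3 to 0.066 for BAD. With 1 sow left out, the differences ran from -0.15 to 0.043 for the dimmer BID probe set (above 0 without high 2 or low 4), from -0.053 to 0.10 for the brighter one (below 0 without high 3, high 5, high 6, low 3 or low 6), from -0.15 to 0.0045 for DFFA (above 0 without low 3), from -0.18 to 0.069 for CASP2 (above 0 without high 2), from 0.048 to 0.31 for MCL1, from 0.068 to 0.22 for TNFRSF1A and from -0.12 to -0.0067 for CASP8. The cause of these changes was not tested. The CASP8 probe set did not pass the filter at 6. Values were counted as kept if they held their direction and side of the threshold or, where untested, moved by less than the SD between sows. Of 650 recomputed values, 629 were counted as kept. The median of the other BCL2 family genes was counted among them, although it turned from 0.038 to -0.016 with every tested probe set of a gene. The probe sets of BCL2L1, BAX and BAK1 lay at the floor, so these genes could not be compared.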

Other observations

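The 6 pairs among MCL1, BID, CASP8 and TNFRSF1A were correlated over the 12 sows after the values were seen, with group means removed. MCL1 and TNFRSF1A correlated at r = 0.752 (permutation p = 0.0053, adjusted p = 0.0318; rho = 0.790, permutation p = 0.0032, adjusted p = 0.0191), with 0.875 in high and 0.418 in low prolificacy sows. It was 0.509 without high 2 and 0.438 without high 1 and high 2 (permutation p = 0.204). The relation was thus weaker, and still positive, without those sows, which lay farthest from the median in MCL1. Whether it rests on them was not tested. MCL1 and CASP8 correlated at r = 0.579 (permutation p = 0.0413, adjusted p = 0.124; rho = 0.497), which was 0.258 without high 2 and 0.313 without high 1 and high 2. BID and TNFRSF1A correlated at r = 0.0326 (permutation p = 0.919, adjusted p = 0.919; rho = 0.147), and at 0.731 without high 2 and low 3 and 0.630 without high 2.

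Against the actin 3' minus 5' difference, added after the values were seen as a family of 4, CASP8 gave r = 0.618 (permutation p = 0.0286, adjusted p = 0.0874; rho = 0.685, permutation p = 0.0164, adjusted p = 0.0657) and MCL1 r = 0.570 (permutation p = 0.0656, adjusted p = 0.0874; rho = 0.308). TNFRSF1A gave 0.580 (permutation p = 0.0475, adjusted p = 0.0874) and BID -0.430 (permutation p = 0.166, adjusted p = 0.166). Without high 2 the values were 0.409 for CASP8, 0.0146 for MCL1, 0.270 for TNFRSF1A and -0.0908 for BID. Without the 2 sows farthest from the median in the actin difference, high 2 and high 3, they were 0.219 for CASP8, 0.206 for MCL1, 0.0798 for TNFRSF1A and 0.0554 for BID.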
